A study of Mus musculus with 12 samples.

Results

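The CD28 family and the other inhibitory receptors often called immune checkpoints were followed in mouse CD4+ T cells with and without Keap1. The 10 genes were Ctla4, Cd28, Icos, Pdcd1, Btla, Lag3, Havcr2, Tigit, Cd160 and Cd200, taken by symbol from a count matrix of 32698 named genes. All 10 had a row, and all 10 passed the filter on low counts. The cells were naive CD4+ T cells stimulated in vitro through CD3 and CD28 by antibody, and their RNA was sequenced. The groups were Keap1 knockout (KKO) at 48 h, WT at 48 h, KKO at 24 h and WT at 24 h, with 3 libraries each. All 4 groups received the same stimulus, and no unstimulated cells are part of the comparison. The way Keap1 was deleted, the cells it was deleted in and the age of the mice are not stated in the labels.

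A T cell needs a signal through its antigen receptor and a second one through a co-receptor to become fully active. CD28 gives the second signal when it binds CD80 or CD86, and the anti-CD28 antibody of these cultures stands in for those ligands. CTLA-4 binds the same ligands more tightly and restrains the response, while ICOS, which has a ligand of its own, sustains help to B cells. PD-1, BTLA, LAG-3, TIM-3 (the product of Havcr2) and TIGIT are inhibitory receptors, several of which appear after activation. CD160 shares the ligand HVEM with BTLA, and CD200 is a surface protein that restrains cells bearing its receptor. KEAP1 directs the stress-response factor NRF2 to degradation, so NRF2 builds up in cells that lack it.

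Ctla4, Cd28 and Icos lie side by side on 1 strand of chromosome 1 (GRCm38/mm10, GENCODE M21), Cd28 at chr1:60716800-60773359, Ctla4 at chr1:60887000-60915832 and Icos at chr1:60977927-61000320. The gaps between them were 113.6 kb from Cd28 to Ctla4 and 62.1 kb from Ctla4 to Icos. Pdcd1 (chr1:94038305-94052553) lies far from them on the same chromosome. Btla (chr16:45224315-45257670) and Cd200 (chr16:45382135-45409053) are 124.5 kb apart on chromosome 16, where Tigit (chr16:43648867-43664146) also lies. Lag3 is at chr6:124904361-124911705, Havcr2 at chr11:46454935-46481255 and Cd160 at chr3:96798763-96829351. In that annotation Ctla4 overlaps a processed pseudogene, Icos a predicted gene and Cd160 the opposite-strand gene Pdzk1. The sources do not say whether counting used strand.

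The promoters of Ctla4, Tigit and Pdcd1 are shown because, at 48 h, Ctla4 and Tigit were higher and Pdcd1 lower in KKO. Each window runs from 250 bases before to 50 after the RefSeq start on build GRCm38.p6, 5′ to 3′ on the gene's own strand: Ctla4 at chr1:60908775-60909074 (plus strand), Tigit at chr16:43664135-43664434 (minus strand) and Pdcd1 at chr1:94052504-94052803 (minus strand). Capitals mark the core GGAAA of the site for NFAT, the calcium-driven factor of T cell activation, read on either strand, where the other strand gives TTTCC. The RefSeq start of Ctla4 used here lies inside the longer gene span given above.
Ctla4: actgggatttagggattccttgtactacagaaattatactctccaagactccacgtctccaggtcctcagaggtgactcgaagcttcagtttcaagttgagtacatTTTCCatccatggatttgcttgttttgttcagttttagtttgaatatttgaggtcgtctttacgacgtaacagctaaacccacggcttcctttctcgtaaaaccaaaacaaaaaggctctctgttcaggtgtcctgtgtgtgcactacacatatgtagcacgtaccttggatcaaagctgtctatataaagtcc
Tigit: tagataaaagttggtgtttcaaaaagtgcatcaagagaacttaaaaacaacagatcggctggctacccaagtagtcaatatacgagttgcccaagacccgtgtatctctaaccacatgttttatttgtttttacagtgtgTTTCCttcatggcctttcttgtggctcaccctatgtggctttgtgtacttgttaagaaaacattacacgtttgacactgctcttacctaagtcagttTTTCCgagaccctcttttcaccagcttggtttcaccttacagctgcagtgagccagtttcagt
Pdcd1: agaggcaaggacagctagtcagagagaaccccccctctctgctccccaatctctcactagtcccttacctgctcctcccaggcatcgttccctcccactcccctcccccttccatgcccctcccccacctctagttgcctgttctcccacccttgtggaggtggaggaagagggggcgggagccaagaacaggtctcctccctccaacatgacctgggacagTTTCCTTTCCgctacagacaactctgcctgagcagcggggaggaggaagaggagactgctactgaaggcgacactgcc
The core stood once in the Ctla4 window, and 2 copies stood in each of the Tigit and Pdcd1 windows. Among 32851 RefSeq promoter windows of mouse, 61.3% held it. The antioxidant response element core TGANNNNGC, the kind of site NRF2 binds, had 1 match in the Tigit window and 0 in those of Ctla4 and Pdcd1, while 41.3% of all windows held it. This core also had 1 match in the Btla window and 1 in each Cd160 window, both genes being lower in KKO at 48 h. It had 0 in those of Havcr2 and Cd200. The AP-1 site TGANTCA had 0 matches in the windows of Ctla4, Tigit and Pdcd1 and 1 in that of Havcr2, against 7.8% of all windows with at least 1. The interferon-stimulated response element core was in none of the 8 windows found for 7 of the genes (3.4% of all windows). Cd28, Icos and Lag3 were not in the table of promoters. These matches were sought on both strands, with a site that reads alike on both counted 1 time, may overlap each other, and describe letters only.

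Library totals were 17.79 to 32.61 M expected counts, where M stands for mega. Keap1, the deleted gene, was lower in every KKO library than in any WT library. It averaged 21.2 ± 1.21 CPM in KKO and 126 ± 5.16 CPM in WT at 48 h, and 16.6 ± 0.906 CPM in KKO and 107 ± 1.48 CPM in WT at 24 h (SD, n = 3 each). CPM are counts per M of TMM-scaled library size. The 8 T cell markers, Cd4 among them, summed to 2190 to 2380 CPM in KKO and 2260 to 2330 CPM in WT at 48 h, and to 2410 to 2440 CPM in KKO and 2550 to 2640 CPM in WT at 24 h. B cell markers (10 genes, none at 0) summed to 53.1 to 79.7 CPM in KKO and 26.1 to 36.4 CPM in WT at 48 h, with 8 of 9 tested higher in KKO. At 24 h they summed to 50.4 to 70.0 CPM in KKO and 25.2 to 31.8 CPM in WT, with 4 of 9 higher. Xist and Y-linked transcripts showed cells of both sexes in every group, and KKO replicate 3 at 48 h as well as KKO replicate 1 at 24 h carried both kinds (called sex-mixed below). The labels do not say whether libraries came from separate mice or cultures, so p-values measure the spread between these libraries.

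At 48 h, 7 of the 10 receptor genes differed between KKO and WT, 2 higher and 5 lower in KKO. Ctla4 and Tigit were higher, and Icos, Pdcd1, Btla, Cd160 and Cd200 were lower. At the same threshold 24.3% of all 13196 tested genes were called (12.4% higher and 11.9% lower), where called means an adjusted p under 0.05 by edgeR's quasi-likelihood test. The median log2 fold change was -0.02 over the 10 genes and -0.004 over all tested genes. The 10 genes were chosen with earlier results of these data known, so a larger called share is no test of them as a set. At 24 h, 3 of the 10 were called, Tigit higher and Btla and Cd200 lower in KKO, beside 2.33% of all tested genes (1.89% higher and 0.432% lower). The median was -0.17 over the 10 and -0.004 over all. The share of all tested genes called moved with single libraries too. At 48 h it was 10.4% without KKO replicate 1, 12.3% without KKO replicate 3, 12.7% without WT replicate 1, 12.5% without WT replicate 2 and 39.6% without KKO replicate 2. The count of receptor genes called in those fits was 4, 5, 4, 4 and 8. Without both sex-mixed libraries it was 4, beside 10.4% of all genes. At 24 h 1 receptor gene was called without KKO replicate 1 (1.31% of all genes), without KKO replicate 3 (0.983%) or without WT replicate 2 (1.03%). None was called in edgeR without WT replicate 3 (1.13%) or without both sex-mixed libraries (0.799%). Without KKO replicate 2 at 48 h, 4 were called at 24 h, beside 3.73% of all genes. In bulk RNA of this kind, fewer cells of a type and less RNA per cell cannot be told apart.

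**Figure D1:**
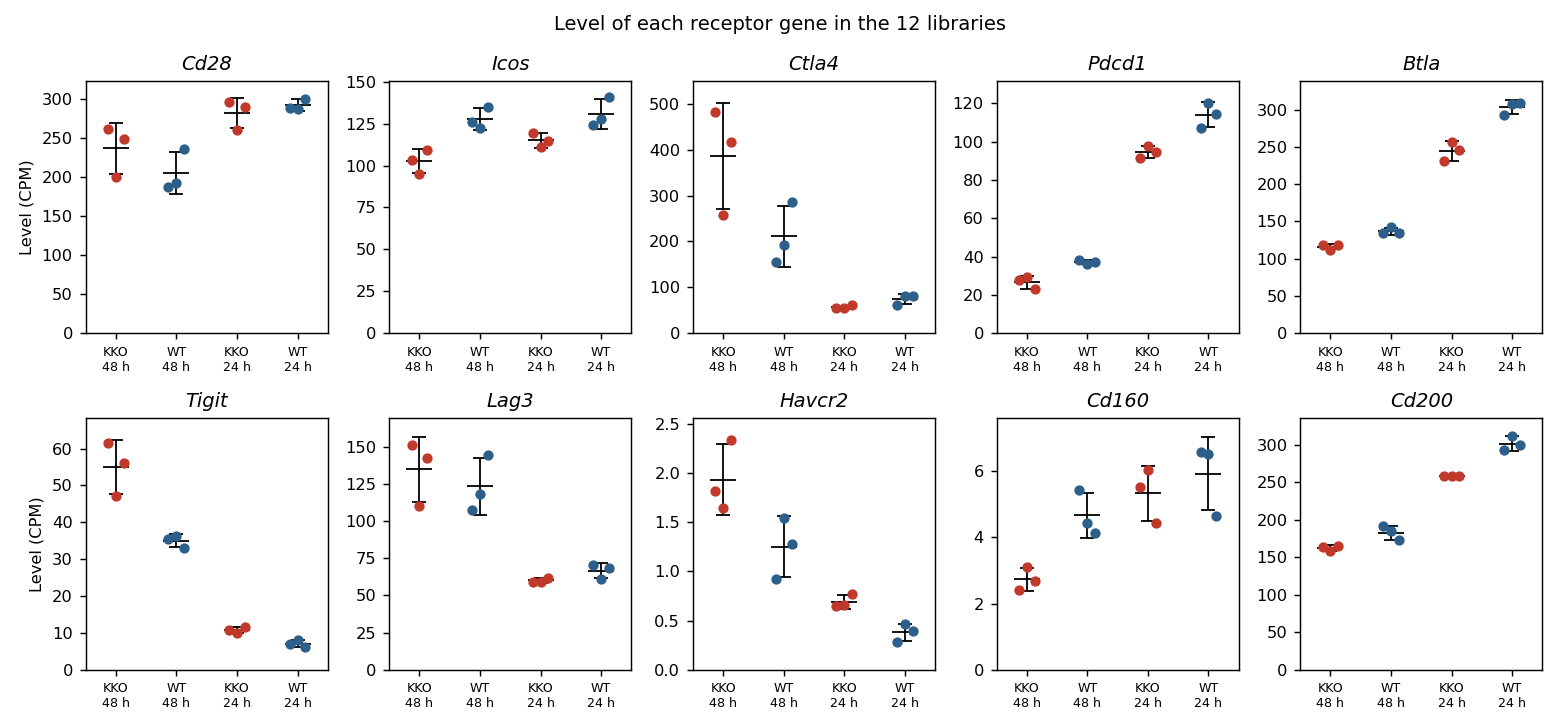
Levels of the 10 receptor genes in CPM (y axis, linear, from 0, scaled per gene) in the 3 libraries of each group; points are libraries, and black lines are the group mean and SD. Ctla4 and Tigit stand highest in KKO at 48 h, while Pdcd1, Btla and Cd200 stand lower at 48 h than at 24 h in both genotypes.

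Ctla4, the inhibitory rival of CD28, had 482, 258 and 418 CPM in KKO at 48 h, against 155, 192 and 285 CPM in WT. KKO replicates 1 and 3 were above all WT libraries and replicate 2 was within the WT range, so the groups overlapped. The means were 386 ± 115 CPM in KKO and 211 ± 66.7 CPM in WT (SD, n = 3 each), a ratio of 1.83. The log2 fold change was 0.87 ± 0.26 (SE, as for all log2 fold changes below), with an edgeR adjusted p of 0.0405. This call was lost in 8 of 22 alternatives, with adjusted p from 0.00786 to 0.18. The lost ones were no low-count filter (0.0744), only the libraries compared (0.0895), without both sex-mixed libraries (0.152), and without KKO replicate 1 (0.18) or replicate 3, WT replicate 1 or replicate 2 at 48 h, or KKO replicate 3 at 24 h. The library with the highest Ctla4 in each genotype at 48 h held Y-linked transcripts and almost no Xist: KKO replicate 1 at 482 CPM and WT replicate 3 at 285 CPM. Among libraries with Xist and little or no Y-linked signal, Ctla4 was 258 CPM in KKO replicate 2 and 155 and 192 CPM in WT replicates 1 and 2, and the mixed KKO replicate 3 had 418 CPM. With the share of Y-linked signal as a covariate, the log2 fold change was 0.77 ± 0.17 with an adjusted p of 0.0109.

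At 24 h Ctla4 had 53.7, 54.0 and 60.1 CPM in KKO, against 60.6, 81.1 and 80.4 CPM in WT. Here all KKO libraries were below all WT libraries, though the log2 fold change of -0.40 ± 0.27 did not pass the test (adjusted p 0.726). The interaction, which is the KKO effect at 48 h minus that at 24 h, was 1.28 ± 0.38 on the log2 scale, with an adjusted p of 0.0899. The test of that difference was passed with DESeq2 (0.0167), with replicate numbers as a block (0.0188), with the Y-linked covariate (0.0133), and without KKO replicate 2 (0.0147) or WT replicate 3 (0.0263) at 48 h. None of the 10 genes passed the interaction test in edgeR, beside 4.18% of all tested genes (1.46% higher and 2.72% lower). At an unadjusted p under 0.05, 2 of the 10 passed, Ctla4 and Cd160, beside 2978 of all 13196 tested genes. DESeq2 called 1 and limma-voom 0 (3.95% of all tested genes in limma-voom). Without KKO replicate 2 at 48 h edgeR called 3, Ctla4, Cd28 and Pdcd1, beside 23.8% of all tested genes in that fit. The share of all genes called was 8.55% with DESeq2, 7.06% with the block, 10.4% with the Y-linked covariate and 6.13% without WT replicate 3 at 48 h. Across the fits that leave out 1 library it ran from 1.06% to 23.8%. The block sets same-numbered libraries together, while KKO replicates 1 and 3 did not hold the same sex-linked transcripts at both times.

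Cd28 itself, the costimulatory receptor that the culture antibody engages, had 262, 200 and 250 CPM in KKO at 48 h, against 187, 193 and 236 CPM in WT. KKO replicate 2 sat within the WT range, so the groups overlapped, and 0.21 ± 0.10 did not pass the test (adjusted p 0.149). It passed without KKO replicate 2 (0.30, adjusted p 0.00913) or WT replicate 3 (0.31, adjusted p 0.0248). At 24 h Cd28 had 297, 260 and 290 CPM in KKO and 289, 288 and 301 CPM in WT, and the groups overlapped. The difference was -0.05 ± 0.10 (adjusted p 0.967).

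The level of Ctla4 relative to Cd28, per kb of exon, moved with both genotype and time. It was 4.14, 2.90 and 3.76 in KKO at 48 h, against 1.87, 2.25 and 2.72 in WT. At 24 h it was 0.407, 0.466 and 0.466 in KKO, against 0.471, 0.634 and 0.6 in WT. The KKO ratios were all above the WT ratios at 48 h and all below them at 24 h. No test was made of this ratio.

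Icos, the second costimulatory member of the family, had 103, 95.1 and 109 CPM in KKO at 48 h, against 126, 122 and 135 CPM in WT. The groups did not overlap, and Icos was lower in KKO (-0.32 ± 0.07, adjusted p 0.00445). At 24 h it had 120, 111 and 114 CPM in KKO and 124, 127 and 141 CPM in WT, again without overlap. That difference of -0.19 ± 0.07 did not pass the test (adjusted p 0.224), though it did with the Y-linked covariate (-0.21, adjusted p 0.0476). Icos kept its 48 h call in all 22 alternatives. The 3 neighbours on chromosome 1 stood apart at 48 h, with Ctla4 higher, Icos lower and Cd28 not called.

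**Figure D2:**
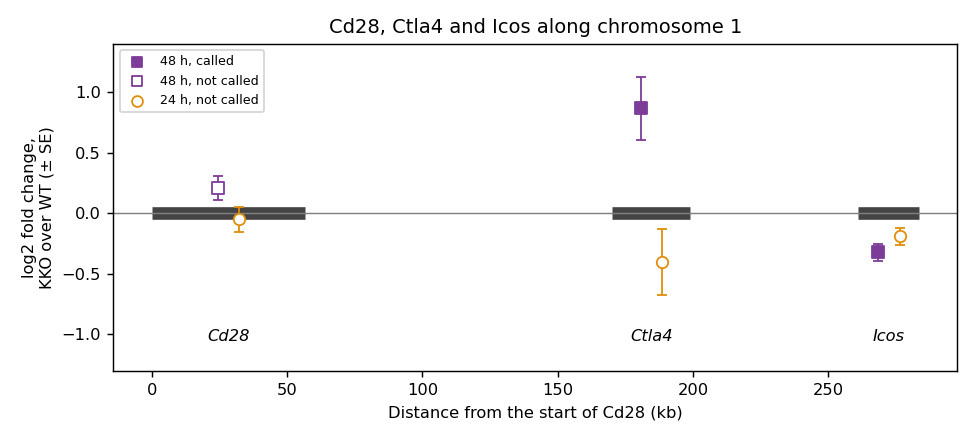
log2 fold change of KKO over WT (y axis, with SE) for Cd28, Ctla4 and Icos against distance from the start of Cd28 in kb (x axis), squares for 48 h and circles for 24 h, filled where called. At 48 h Ctla4 sits at 0.87, Icos at -0.32 and Cd28 at 0.21.

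Pdcd1, which encodes the inhibitory receptor PD-1, had 27.5, 29.0 and 22.8 CPM in KKO at 48 h, against 38.1, 36.3 and 37.0 CPM in WT. All KKO libraries were below all WT libraries. The log2 fold change was -0.49 ± 0.08 with an adjusted p of 0.000718, and the call held in all 22 alternatives. At 24 h Pdcd1 had 91.6, 97.8 and 94.6 CPM in KKO, against 107, 120 and 114 CPM in WT. The groups did not overlap there either, but -0.27 ± 0.07 missed the threshold in edgeR (adjusted p 0.0629). It was called with DESeq2 (0.0300), with only the libraries compared (0.0126) and without KKO replicate 2 or replicate 3 at 48 h.

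Btla, an inhibitory receptor for HVEM, had 118, 112 and 118 CPM in KKO at 48 h, against 134, 142 and 134 CPM in WT. It was lower in every KKO library (-0.24 ± 0.06, adjusted p 0.0105). Without WT replicate 2 at 48 h the adjusted p was 0.0580. At 24 h Btla had 230, 257 and 245 CPM in KKO, against 292, 308 and 309 CPM in WT. Again no libraries overlapped, and the difference was -0.31 ± 0.06 (adjusted p 0.00836). This 24 h call was lost without KKO replicate 1, WT replicate 2 or WT replicate 3 at 24 h, and without both sex-mixed libraries.

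Cd200, the neighbour of Btla and a ligand that restrains cells bearing CD200R, had 164, 158 and 166 CPM in KKO at 48 h, against 192, 185 and 173 CPM in WT. It was lower in every KKO library (-0.17 ± 0.06, adjusted p 0.0359). At 24 h it had 258 CPM in each of the 3 KKO libraries, against 293, 313 and 300 CPM in WT. That difference of -0.22 ± 0.05 was called at an adjusted p of 0.0452, and it was lost in 12 of 22 alternatives, RLE scaling (0.0502), no low-count filter (0.0739), the replicate block (0.0868) and the loss of any 24 h library included. It was also lost without KKO replicate 3 or WT replicate 2 at 48 h. The 48 h call was lost in 8 of 22, among them the replicate block (0.0625), and without KKO replicate 1 or replicate 3, WT replicate 1 or replicate 2 at 48 h, or KKO replicate 3 at 24 h. B cells also express Btla and Cd200, and the sums of B cell markers given above were higher in KKO where both genes were lower. The part of those cells in the result was not tested.

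Tigit, an inhibitory receptor for the poliovirus receptor CD155, had 61.6, 47.0 and 56.2 CPM in KKO at 48 h, against 35.6, 36.3 and 32.9 CPM in WT. No library of one genotype reached the other. The log2 fold change was 0.65 ± 0.10 with an adjusted p of 0.000608, a ratio of means of 1.57, and this call held in all 22 alternatives. At 24 h Tigit had 10.8, 10.1 and 11.5 CPM in KKO, against 7.11, 7.95 and 6.07 CPM in WT. It was again higher in every KKO library, by 0.61 ± 0.12 (adjusted p 0.0106). The 24 h call was lost without KKO replicate 3 or WT replicate 3 at 24 h, and without both sex-mixed libraries (0.0733). The interaction of 0.04 ± 0.16 did not pass the test (adjusted p 0.893).

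Regulatory T cells also carry CTLA-4 and TIGIT. Their 4 markers, Foxp3 among them and none at 0, summed to 38.1 to 47.4 CPM in KKO and 38.7 to 44.7 CPM in WT at 48 h. Those sums overlapped. Of the 4, 1 was higher and 1 lower in KKO at 48 h. At 24 h the sums were 56.4 to 59.7 CPM in KKO and 33.8 to 39.8 CPM in WT, without overlap and with 0 of 4 called. Foxp3 averaged 3.81 ± 1.50 CPM in KKO and 2.79 ± 0.550 CPM in WT at 48 h (SD, n = 3 each), and that difference did not pass the test (0.47 ± 0.24, adjusted p 0.162). At 24 h it averaged 14.1 ± 1.19 CPM in KKO and 10.3 ± 0.740 CPM in WT and was higher in every KKO library. That difference did not pass the test either (0.45 ± 0.19, adjusted p 0.346). The part of regulatory T cells in the results for Ctla4 and Tigit was not tested at either time.

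Cd160, a receptor for HVEM known best from natural killer and CD8 T cells, had 2.41, 3.11 and 2.67 CPM in KKO at 48 h, against 5.44, 4.42 and 4.13 CPM in WT. All KKO libraries were below all WT libraries, on 49 to 56 counts each in KKO and 87 to 100 in WT. The log2 fold change was -0.77 ± 0.19 (adjusted p 0.0115). The call was lost without KKO replicate 1 or WT replicate 1 at 48 h and without both sex-mixed libraries. At 24 h Cd160 had 5.51, 6.04 and 4.43 CPM in KKO and 6.57, 6.53 and 4.64 CPM in WT. Those libraries overlapped and -0.15 ± 0.17 did not pass the test (adjusted p 0.903). The interaction was -0.62 ± 0.26 (adjusted p 0.176).

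Summed markers of cells that usually carry Cd160 were higher in KKO at 48 h, while Cd160 was lower. Natural killer cell markers (7 genes, none at 0) summed to 16.0 to 22.2 CPM in KKO and 9.73 to 13.5 CPM in WT at 48 h, where 1 of 5 tested was higher and 1 lower. Cd8a and Cd8b1 together summed to 12.7 to 13.4 CPM in KKO and 8.32 to 10.6 CPM in WT, and both were higher in KKO. Markers of gamma-delta T cells (3 genes) summed to 5.77 to 10.7 CPM in KKO and 3.01 to 4.32 CPM in WT, with 2 of 3 higher. Myeloid markers (9 genes) summed to no more than 2.67 CPM in any library, and Clec9a was at 0 throughout. The part of these cells in the result was not tested. Pdzk1, which overlaps Cd160, was not called (-0.17, adjusted p 0.665).

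Lag3, an inhibitory receptor for MHC class II, had 151, 110 and 143 CPM in KKO at 48 h, against 107, 118 and 145 CPM in WT. The libraries overlapped and 0.13 ± 0.12 did not pass the test (adjusted p 0.458). At 24 h Lag3 had 59.2, 59.2 and 61.7 CPM in KKO and 70.5, 61.3 and 68.3 CPM in WT. These overlapped by a small margin, and -0.15 ± 0.12 did not pass the test (adjusted p 0.804).

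Havcr2, which encodes the inhibitory receptor TIM-3, was the lowest of the 10 per kb of exon in every group. In CPM it had 1.82, 1.64 and 2.34 CPM in KKO at 48 h, against 0.92, 1.55 and 1.28 CPM in WT, from 29 to 49 counts in KKO and 17 to 35 in WT. At 24 h it had 0.64, 0.66 and 0.77 CPM in KKO, against 0.29, 0.46 and 0.39 CPM in WT, from at most 18 counts per library. Every KKO library was above every WT library at each time, yet neither difference passed the test. The log2 fold change was 0.62 ± 0.27 at 48 h (adjusted p 0.108). It was 0.84 ± 0.33 at 24 h (adjusted p 0.301).

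**Figure D3:**
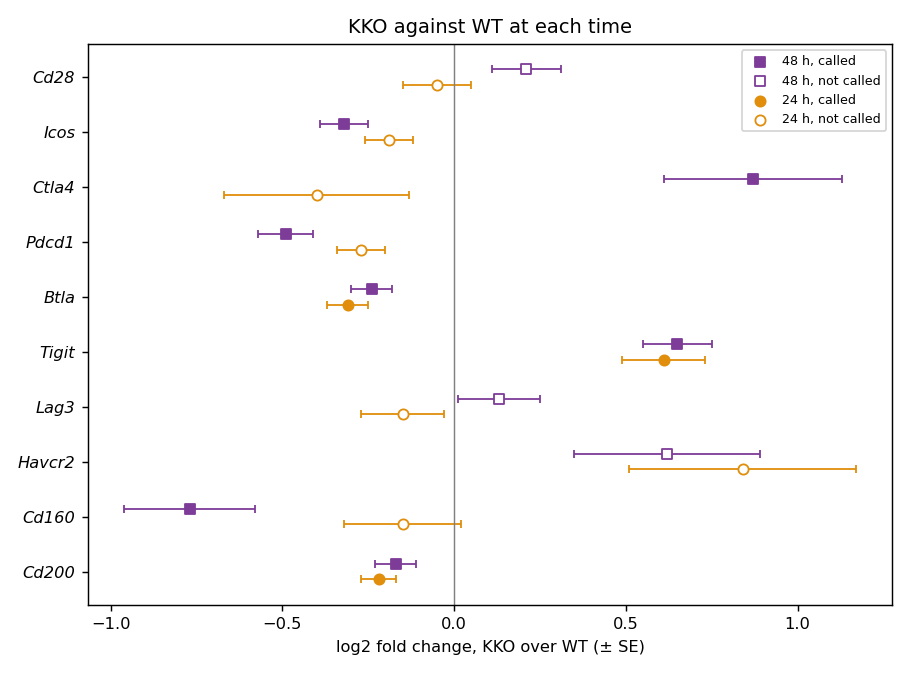
log2 fold change of KKO over WT for the 10 genes (x axis, with SE), squares for 48 h and circles for 24 h, filled where edgeR's adjusted p was under 0.05. Tigit is right of 0 at both times, Btla and Cd200 are left of 0 at both times, and Ctla4 is right of 0 at 48 h only.

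Between the times the receptor genes split into a group that was higher at 48 h and a group that was lower. In KKO, 10 of 10 differed between 48 h and 24 h, 4 higher and 6 lower at 48 h, beside 67.8% of all tested genes (34.4% higher and 33.4% lower). In WT, 8 of 10 did, 4 higher and 4 lower, beside 60.8% of all (31.0% higher and 29.7% lower). With so many genes moving over time, those counts are read against that background. Medians over the 10 were -0.21 in KKO and -0.19 in WT, against 0.002 and -0.001 over all genes.

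Ctla4, Tigit, Lag3 and Havcr2 were higher at 48 h in both genotypes. Ctla4 was higher at 48 h by 2.79 ± 0.28 in KKO (adjusted p 1.29e-05) and by 1.51 ± 0.27 in WT (adjusted p 0.000854), which are ratios of 6.90 and 2.85. Tigit was higher by 2.35 ± 0.11 in KKO (adjusted p 6.31e-10) and by 2.31 ± 0.11 in WT (adjusted p 7.54e-10). Lag3 was higher by 1.17 ± 0.12 in KKO (adjusted p 2.41e-06) and by 0.89 ± 0.12 in WT (adjusted p 3.51e-05). Havcr2 was higher by 1.49 ± 0.28 in KKO (adjusted p 0.000280) and by 1.71 ± 0.31 in WT (adjusted p 0.000246), from its low level. For each of these 4 inhibitory receptors no 48 h library overlapped a 24 h library of the same genotype. The share of all tested genes without such overlap was not worked out.

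Pdcd1 was lowered most at 48 h, in KKO (-1.84 ± 0.08, adjusted p 1.97e-10) and in WT (-1.62 ± 0.07, adjusted p 4.32e-10). Btla was lower at 48 h in KKO (-1.07 ± 0.06, adjusted p 2.14e-09) and in WT (-1.15 ± 0.06, adjusted p 1.10e-09). Cd200 was lower in KKO (-0.67 ± 0.06, adjusted p 9.07e-08) and in WT (-0.72 ± 0.06, adjusted p 5.79e-08). None of these 3 genes had overlapping times, again without a share of all genes to set beside it. Cd28 was lower in KKO (-0.25 ± 0.10, adjusted p 0.0392), where times overlapped, and in WT (-0.51 ± 0.10, adjusted p 0.00056), where they did not. Cd160 was lower in KKO (-0.97 ± 0.19, adjusted p 0.000348), while in WT -0.35 ± 0.18 did not pass (adjusted p 0.101). Icos was lower in KKO (-0.16 ± 0.07, adjusted p 0.0412), while in WT -0.03 ± 0.07 did not pass (adjusted p 0.680). The KKO time calls of Cd28 and Icos were lost in 6 and 7 of 22 alternatives, upper-quartile scaling included. Both were lost without both sex-mixed libraries, KKO replicate 2 at 48 h, or KKO replicate 1 or replicate 3 at 24 h. Icos also lost its call without KKO replicate 1 at 48 h. In WT, Cd160 was called with the Y-linked covariate (0.0327) or without WT replicate 3 at 24 h (0.0312).

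**Figure D4:**
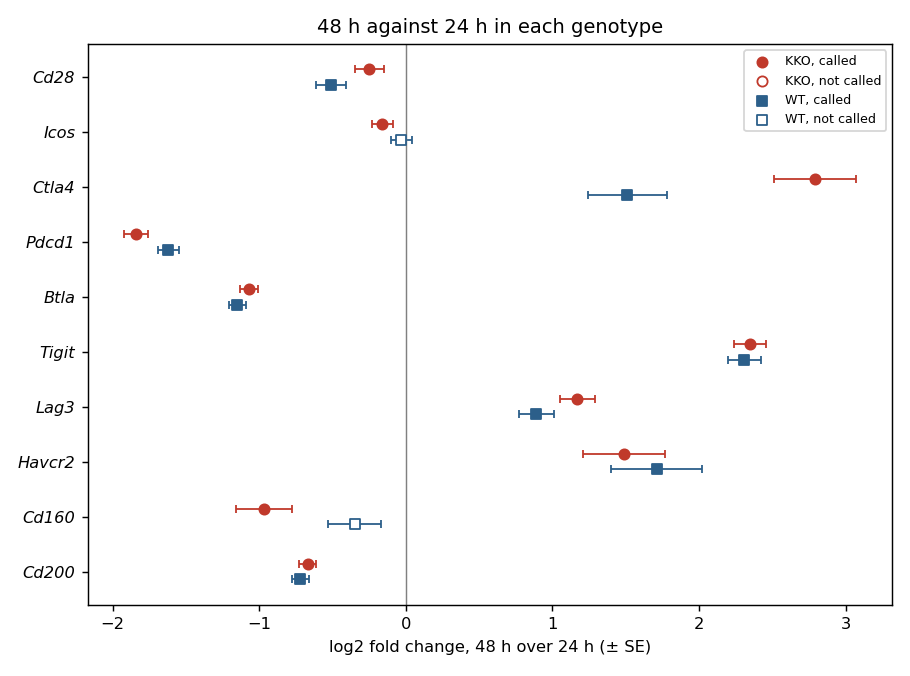
log2 fold change of 48 h over 24 h for the 10 genes (x axis, with SE), circles for KKO and squares for WT, filled where called. Ctla4 sits at 2.79 in KKO and 1.51 in WT, whereas Tigit, Btla, Pdcd1 and Cd200 sit close together in both genotypes.

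Per kb of exon, the 10 genes were in another order at 48 h than at 24 h. At 48 h Ctla4 was first in KKO at 200 ± 59.7 CPM per kb, clear of Cd200 at 69.2 ± 1.69. In WT it was also first, at 109 ± 34.5 CPM per kb, but its libraries overlapped those of Cd200 at 78.0 ± 4.05. In KKO, Cd200, Lag3, Tigit and Cd28 overlapped from neighbour to neighbour, between 69.2 and 54.5 CPM per kb. Btla, Icos and Pdcd1 followed at 35.6, 29.9 and 13.7 CPM per kb, each apart from the next. In WT at 48 h, Lag3 (61.6), Cd28 (47.2) and Btla (42.0) overlapped in turn, then Tigit (38.0) and Icos (37.3), with Pdcd1 apart at 19.2 CPM per kb.

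At 24 h Cd200 was first in both genotypes, at 110 ± 0.0556 CPM per kb in KKO and 129 ± 4.29 CPM per kb in WT. Btla, Cd28 and Pdcd1 came next and were apart from each other, at 75.0, 65.0 and 49.0 CPM per kb in KKO and 93.1, 67.3 and 59.1 in WT. Lower down, Lag3 and Ctla4 overlapped in KKO, at 30.0 and 28.9 CPM per kb, and Ctla4 and Icos overlapped in WT, at 38.3 and 38.1. Tigit stood at 11.7 CPM per kb in KKO and 7.66 in WT. In all 4 groups Cd160 and Havcr2 were last, at 1.03 to 2.24 and 0.140 to 0.710 CPM per kb.

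Other genes with the most similar course over the 12 libraries were found by the root mean square difference of log2 CPM, each gene centred on its own mean, among 9951 candidates. Nearest to Ctla4 was Pold4 (0.165), and nearest to Tigit were Bhlhe40 (0.181) and Themis (0.187). For Pdcd1 they were Ung (0.122) and Rbm19 (0.134), for Btla Il6st (0.079) and St8sia6 (0.116), and for Lag3 Gimap4 (0.089) and Kbtbd11 (0.095). Cd28 came closest to Snx15 (0.062) and Gpsm1 (0.075), Icos to Katna1 (0.055) and Ulbp1 (0.064), and Cd200 to Xrcc6bp1 (0.050) and Adss (0.059). Cd160 came closest to Zfp862-ps (0.143) and Gramd1b (0.154), and Havcr2 to Neurl3 (0.197) and Blvrb (0.234). A gene that moved little over the libraries has a small distance to many others.

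The ligands and counter-receptors of the family were mixed in direction at 48 h. Of 13 tested, 3 were higher and 3 lower in KKO (46.2% called, beside 24.3% of all tested genes), with a median of -0.06. This list and those that follow were chosen with earlier results of these data known. A share above that of all genes is therefore no test of a list. Lgals3, a galectin that binds LAG-3, averaged 32.3 ± 11.2 CPM in KKO and 8.41 ± 2.34 CPM in WT (SD, n = 3 each; 1.95 ± 0.24, adjusted p 0.000231). Cd200r1, the receptor for CD200, was higher by 1.63 ± 0.45 (adjusted p 0.0190) at 0.706 CPM in KKO and 0.225 CPM in WT. It rested on only 10 to 17 counts per library in KKO and 4 to 5 in WT. Ceacam1, a ligand of TIM-3, was higher by 1.15 ± 0.33 (adjusted p 0.0220), on 28 to 37 counts in KKO and 13 to 20 in WT. Cd80, a ligand that CD28 and CTLA-4 share, was lower (-1.01 ± 0.16, adjusted p 0.000769) at 6.90 ± 1.72 CPM in KKO and 13.8 ± 1.01 CPM in WT. Lgals9, another ligand of TIM-3, and Cd274, which encodes the PD-1 ligand PD-L1, were also lower (log2 fold changes -0.66 and -0.37, adjusted p 4.71e-05 and 0.00237), and were named after their values were seen. Cd86, the other ligand that CD28 and CTLA-4 share, was not called (0.54 ± 0.24, adjusted p 0.11) and was likewise named afterwards. It averaged 2.74 CPM in KKO and 1.87 CPM in WT. At 24 h 0 of 13 passed in edgeR (2.33% of all tested genes), 1 in DESeq2 (3.66%) and 0 in limma-voom (2.15%). At an unadjusted p under 0.05 there were 4, beside 1474 of all 13196 genes. These 13 had a median of 0.28. The smallest p there was that of Icosl, the ICOS ligand, at 1.32 ± 0.395 CPM in KKO and 0.578 ± 0.0269 CPM in WT (1.18 ± 0.31, adjusted p 0.0659).

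Among 14 other co-receptors tested, 4 were higher and 5 lower in KKO at 48 h (64.3% called, beside 24.3% of all), with a median of -0.07. Lair1, a collagen receptor, was higher by 1.22 ± 0.20 (adjusted p 0.001), and Cd101 by 1.11 ± 0.37 (adjusted p 0.0432). For Cd101 the groups overlapped, with 1.92 CPM in KKO replicate 2 and 2.52 CPM in WT replicate 3. Slamf6, a receptor of the SLAM family, was lower at 9.21 ± 1.38 CPM in KKO and 21.8 ± 3.45 CPM in WT (-1.25 ± 0.12, adjusted p 1.34e-05), and so was Cd96, which binds the ligand of TIGIT (-0.88 ± 0.17, adjusted p 0.00341). At 24 h 0 of 14 passed in edgeR (2.33% of all tested genes), 2 in DESeq2 (3.66%) and 0 in limma-voom (2.15%). At an unadjusted p under 0.05 there were 6, beside 1474 of all 13196 genes. These 14 had a median of -0.10. Vsir, which encodes the inhibitory receptor VISTA, had the smallest p, at 136 ± 5.11 CPM in KKO and 178 ± 11.3 CPM in WT (-0.39 ± 0.12, adjusted p 0.145).

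Of 25 signalling genes below these receptors, 6 were higher and 4 lower in KKO at 48 h (40% called, beside 24.3% of all), with a median of -0.02. Malt1, a protease of antigen receptor signalling, Pik3cd, a catalytic subunit of PI3 kinase that CD28 recruits, and Dok2, an inhibitory adaptor, were higher. Their log2 fold changes were 0.56, 0.42 and 0.32, with adjusted p of 0.0139, 0.00552 and 0.00224. For Malt1 the groups overlapped, with 207 CPM in KKO replicate 2 and 215 CPM in WT replicate 3. Fyn, a kinase of the antigen receptor, was lower (-0.30 ± 0.06, adjusted p 0.00202). The count of 10 was 6 without KKO replicate 1 or replicate 3 or WT replicate 2 at 48 h, or without both sex-mixed libraries.

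Of 9 genes that control these receptors at the surface or as RNA, 3 were lower and 0 higher in KKO at 48 h (33.3% called, near the 24.3% of all tested genes), with a median of -0.14. Fut8, which adds core fucose to PD-1 and other glycoproteins, averaged 9.50 ± 2.11 CPM in KKO and 19.1 ± 0.364 CPM in WT (-1.01 ± 0.13, adjusted p 0.000174). Adam10 and Adam17, sheddases that cut LAG-3 and other receptors, were lower (log2 fold changes -0.26 and -0.14, adjusted p 0.0472 and 0.0423). For Adam10 the groups overlapped, with 125 CPM in KKO replicate 2 and 120 CPM in WT replicate 3. The count was 1 in 13 of the alternatives tried. Those included fits without KKO replicate 1 or replicate 3 at either time, WT replicate 3 at 24 h, WT replicate 1 or replicate 2 at 48 h, or both sex-mixed libraries. At 24 h 0 of 9 were called in edgeR (2.33% of all tested genes), 1 in DESeq2 (3.66%) and 1 in limma-voom (2.15%). At an unadjusted p under 0.05 there was 1, beside 1474 of all 13196 genes. The smallest p of the 9 was that of Zc3h12a, which encodes the RNase Regnase-1 (-0.25 ± 0.06, adjusted p 0.0505).

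Of 27 tested transcription factors that act on the family, 9 were higher and 12 lower in KKO at 48 h (77.8% called, beside 24.3% of all), with a median of -0.17. As with the other lists, the choice was made with earlier results known. Maf, a factor of IL-10 producing and follicular helper cells, averaged 6.002 ± 3.51 CPM in KKO and 0.866 ± 0.354 CPM in WT (2.81 ± 0.48, adjusted p 0.00179). Prdm1, which encodes Blimp-1, averaged 3.94 ± 0.996 CPM in KKO and 1.37 ± 0.0770 CPM in WT (1.52 ± 0.27, adjusted p 0.00162). Eomes, a T-box factor, was lower at 14.3 ± 3.75 CPM in KKO and 44.5 ± 9.74 CPM in WT (-1.64 ± 0.24, adjusted p 0.00131). Tox, a factor of exhausted T cells, was lower at 10.3 ± 3.47 CPM in KKO and 26.2 ± 2.03 CPM in WT (-1.35 ± 0.17, adjusted p 0.000194). At 24 h 3 of 27 were higher and 1 lower in KKO (14.8% called, beside 2.33% of all), with a median of 0.04. Prdm1 (1.91 ± 0.36, adjusted p 0.00894), Nfil3 (1.23 ± 0.19, adjusted p 0.00462) and Ikzf3 (0.53 ± 0.12, adjusted p 0.0430) were higher, and Irf4 was lower (-0.22 ± 0.05, adjusted p 0.0389). The 24 h count of 4 was 2 or 1 without KKO replicate 1 or replicate 3 or WT replicate 2 or replicate 3 at 24 h, WT replicate 2 at 48 h, or both sex-mixed libraries.

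**Figure D5:**
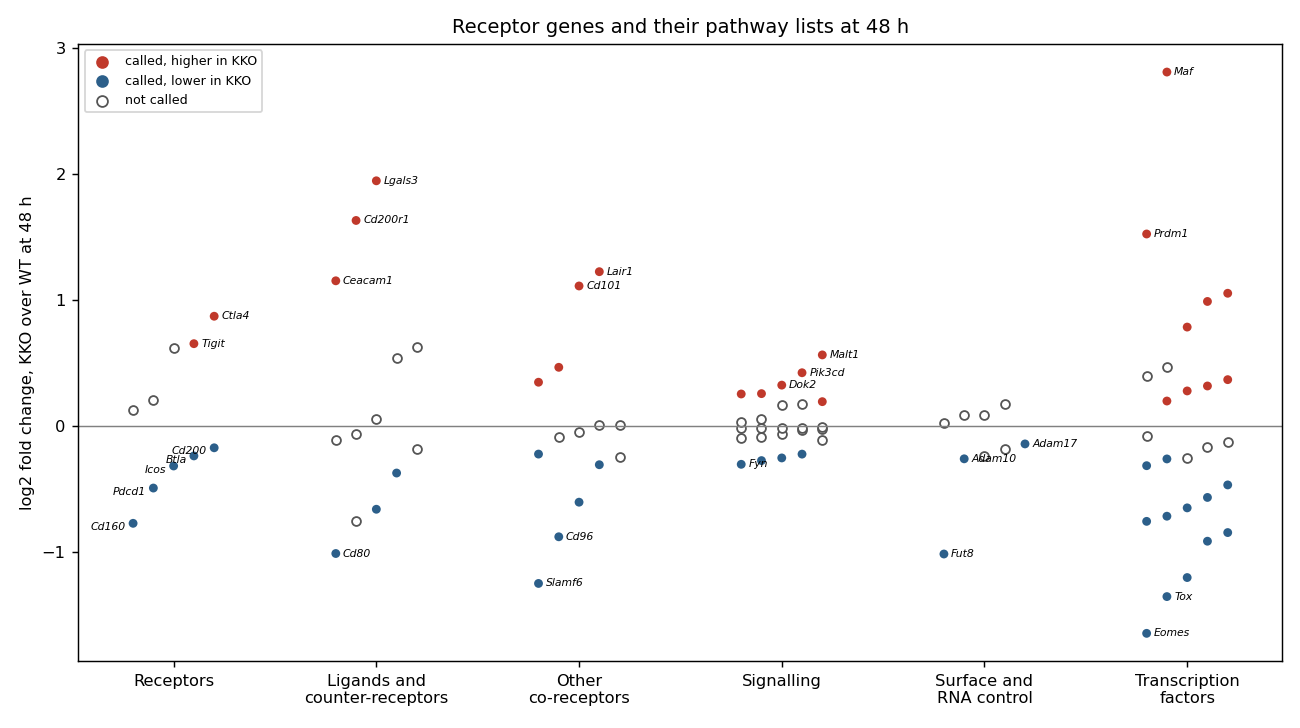
log2 fold change of KKO over WT at 48 h (y axis) for every tested gene of the receptor list and of the 5 lists around it (x axis; horizontal position within a list has no meaning). Filled points passed the test. The factors reach furthest from 0, with Maf at 2.81 and Eomes at -1.64.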

How the data were processed

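RNA was sequenced from 12 libraries, 3 for each of KKO and WT at 48 h and 24 h. The authors deposited expected counts per gene, made with RSEM against mm10 after FastQC, per the submitters' processing notes. A human reference is named in the design text, but symbols and organism label are those of mouse. RSEM's version, the aligner and the annotation are not given in the sources used here. Expected counts share reads between genes, so 10.8 to 12.7% of values were not whole numbers. They were rounded to whole counts. Of 32699 symbols, 27 had become dates and 1 row named no gene (at most 1.09e-05% of a library) and was left out, and 6 columns without a sample label were not used.

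Genes were filtered with filterByExpr, leaving 13196, and tested in edgeR 4.0.16 (R 4.3.3) with TMM scaling, robust quasi-likelihood F tests, 1 mean per group over all 12 libraries, and Benjamini-Hochberg adjustment over all tested genes. Tests were 2-sided, and SE is the log2 fold change over the root of F. Called means an adjusted p under 0.05. Scripts were tested on simulated data. Alternatives were RLE or upper-quartile scaling, DESeq2 1.42.0, limma-voom (limma 3.58.1), no or a stricter filter (1 CPM in 6 libraries), a fit of the compared libraries alone, a block for replicate number, tighter thresholds, Y-linked share as a covariate, fits without the 2 libraries holding both Xist and Y-linked transcripts, and each library left out. For KKO against WT the block was shared by both genotypes, and for time and the interaction it was set within each genotype. Exon lengths and positions came from GENCODE M21 (GRCm38), promoters from RefSeq (GRCm38.p6).

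The receptors and lists were chosen with earlier results of these data known. Named genes are the 10 receptors, Keap1, and from each list and time up to 4 called genes with the largest change, or with none called the gene with the smallest p; for likeness, the 2 nearest genes of at least 2 CPM. Some results that this rule names are not reported here. Deviations from group means of same-numbered WT libraries correlated across time at 0.126, 0.103 and 0.343. WT replicate 1 at 24 h correlated best with replicate 2 at 48 h, so these values do not settle whether the numbers pair WT libraries. The main fit used no pairing, and only the replicate block among the alternatives did. Deviations of same-numbered KKO libraries correlated across time at 0.0287, 0.0852 and 0.0408, and what a number marks is not stated. Between KKO and WT, same-numbered libraries correlated at -0.317, -0.00299 and 0.224 at 24 h. At 48 h these values were -0.249, 0.106 and 0.135.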

Additional observations from a re-analysis of the deposited data

Results flagged for a closer look

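The effect of KKO at 48 h and at 24 h differed for several genes of the lists around the receptors, by edgeR's test of the interaction adjusted over all tested genes. That test called 4.18% of all tested genes. It called 44.4% of 27 factors, 21.4% of 14 co-receptors, 15.4% of 13 ligands, 11.1% of 9 surface and RNA control genes and 8.0% of 25 signalling genes. Without both sex-mixed libraries 0.403% of all genes were called. The interactions of the genes named here were not refitted in the alternatives. Among ligands, Cd80 had an interaction of -1.29 ± 0.27 on the log2 scale (adjusted p 0.0175): a log2 fold change of -1.01 at 48 h, and 0.28 without a call at 24 h. Lgals9, named after its values were seen, had -0.78 ± 0.11 (adjusted p 0.00205). Slamf6 had -1.07 ± 0.15 (adjusted p 0.00206), with -1.25 at 48 h and -0.17 without a call at 24 h. Fut8 had -0.93 ± 0.18 (adjusted p 0.0143), being lower in KKO at 48 h and not called at 24 h. Among factors, Eomes had -2.04 ± 0.33 (adjusted p 0.0115), with 14.3 CPM in KKO and 44.5 CPM in WT at 48 h, and 46.6 CPM in KKO and 35.3 CPM in WT at 24 h. The 24 h libraries of Eomes overlapped, and 0.40 ± 0.22 was not called there (adjusted p 0.604). Tox had -1.0 ± 0.23 (adjusted p 0.0285). Irf4 had 0.42 ± 0.07 (adjusted p 0.00847) and was called in opposite directions, at 0.20 ± 0.05 at 48 h (adjusted p 0.0146) and -0.22 ± 0.05 at 24 h (adjusted p 0.0389). None of the 10 receptor genes had a called interaction in edgeR.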

How the results depend on the processing

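Of the receptor calls, Tigit, Pdcd1 and Icos at 48 h held in all 22 alternatives. The 48 h count of 7 became 3 at an adjusted p under 0.01, beside 10.3% of all genes. It became 0 at a 2-fold change (4.25% of all genes) and 4 without the sex-mixed libraries (10.4%). It ran from 4 to 8 with each library left out. The 24 h count of 3 became 1 at an adjusted p under 0.01, beside 0.97% of all genes. It became 0 at a 2-fold change (0.538% of all genes) and 0 without the sex-mixed libraries (0.799%). It ran from 0 to 4 with each library left out. For the interaction the count of 0 became 1 with DESeq2 (8.55% of all genes called), 1 with the replicate block (7.06%) and 1 with the Y-linked covariate (10.4%), all Ctla4, and ran from 0 to 3 with each library left out, 3 without KKO replicate 2 at 48 h (23.8%). The time counts of 10 in KKO and 8 in WT became 6 and 5 at a 2-fold change, beside 20.3% and 15.4% of all genes. With each library left out they ran from 8 to 10 and from 8 to 9. Uncalled values turned sign when a library was left out for the Tigit interaction, from -0.059 to 0.133, and for Icos over time in WT, from -0.069 to 0.025. With the replicate block, 2 receptors were called at 24 h (2.44% of all genes) and 6 at 48 h (21.9%). In those fits of KKO against WT, the block joined KKO and WT libraries of the same number. Over time as many were called as without it, beside 67.1% of all genes in KKO and 60.5% in WT. Cd200 lost its calls under the block (0.0868 at 24 h, 0.0625 at 48 h), and Ctla4 gained its interaction (1.27, adjusted p 0.0188), though KKO replicates 1 and 3 differed between the times in their Y-linked share (99.95% and 58.74% at 48 h, 62.12% and 99.97% at 24 h). The causes were not tested. Havcr2 rested on 49 counts or fewer in a library, and Cd160 at 48 h on 100 or fewer.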
